A study of Mus musculus with 8 samples.

Results

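The cells described here are 1434 liver cells of mice with diet- and toxin-induced nonalcoholic steatohepatitis (NASH) that held RNA of the chemokine genes Cxcl9 and Cxcl10 together with the macrophage receptor gene Csf1r. A barcode belonged to them when it had more than 500 genes, under 25% of its unique molecular identifiers (UMIs, counts of single RNA molecules) from mitochondrial genes, 3 or more UMIs of Cxcl9 and Cxcl10 added, at least 1 UMI of Csf1r, at most 1 UMI of the Kupffer cell gene Clec4f and no UMI of Top2a (cycling cells), Cd3e (T cells) or Cd79a (B cells). They were 3.81% of the 37649 Csf1r+ cells within the same limits in the NASH mice and 2.19% of the 65518 barcodes of those mice that passed the first 2 limits. The other 36215 Csf1r+ cells, with 0 to 2 chemokine UMIs, served as the comparison. The members were thus chosen by their UMIs of these 7 genes, so the values of those genes are given as a description and carry no test. The numbers of genes tested and called in the comparisons still include those of the 7 that passed the filter on low counts.

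Livers of wild-type C57BL/6 mice were digested with collagenase IV, papain and DNase I, and the cells were profiled by 10x single-cell RNA sequencing without a sort. The groups were WD+F+CCl4 mice, which had a western diet with fructose in the drinking water and injections of carbon tetrachloride (n = 3), HFD+F+CCl4 mice, which had a high-fat diet with the same fructose and carbon tetrachloride (n = 3), and Control mice with none of these (n = 2). Each mouse gave 1 library, with 46275590 to 64855024 UMIs in the NASH libraries and 36699315 and 6135827 UMIs in Control replicates 1 and 2. In all, 80474 of 88581 barcodes passed the first 2 limits, with a median of 3159 to 4278 UMIs per barcode in the NASH libraries, 2397 in Control replicate 1 and 992.5 in Control replicate 2. Fructose and carbon tetrachloride were given in both NASH models, so their part cannot be told apart from that of the diets against Control mice.

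CXCL9 and CXCL10 are secreted proteins that attract activated T cells and natural killer (NK) cells through the receptor CXCR3. Their genes are switched on in macrophages and in endothelial cells by interferon-γ, the cytokine of activated T and NK cells, and Cxcl10 also by type I interferons and by Toll-like receptor signals acting through NF-κB. In the liver, macrophages comprise resident Kupffer cells, cells that develop from recruited monocytes, and, in steatohepatitis, lipid-associated macrophages marked by Trem2 and Gpnmb, while patrolling monocytes survey the vessel walls.

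Markers of macrophages were seen in most of these cells, but the count of markers did not set them apart from every other cell type. Lyz2, the lysozyme gene of myeloid cells, was seen in 97.8% of them, Cd68, a lysosomal membrane protein, in 83.8%, the complement gene C1qa in 67.2%, the Fc receptor gene Fcgr1 in 64.4%, Adgre1, which encodes F4/80, in 56.8% and the apoptotic-cell receptor gene Mertk in 31.7%. At least 3 of the 7 macrophage markers checked were present in 1256 cells (87.6%), against 72.9% of the other Csf1r+ cells, which were shallower (median 4578 against 6534 UMIs per cell). By the same count, 4.60% of B cells, 7.54% of T cells and 34.9% of endothelial cells without Csf1r had at least 3 markers, and so did 214 of the 261 Cxcl9/Cxcl10-high cells with endothelial markers (82.0%). In T cells, which should lack these genes, Cd68 was seen in 11.0%, Adgre1 in 6.01% and C1qa in 20.8% at a median of 2747 UMIs, while Lyz2 was seen in 63.5%. In endothelial cells without Csf1r (median 3523 UMIs) the shares were 15.7% for Cd68, 10.2% for Adgre1, 46.6% for C1qa and 77.8% for Lyz2, so that Lyz2 and C1qa alone say little in these libraries.

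A further set of cells also carried endothelial genes. Of the 1434, 163 (11.4%) carried 10 or more UMIs of 5 endothelial marker genes, among them Kdr, the main receptor for vascular endothelial growth factor, against 1.58% of the other Csf1r+ cells. These 163 cells had a median of 2 Csf1r UMIs and of 8932 UMIs in all, and they came from few mice: 74 from WD+F+CCl4 replicate 3, 85 from HFD+F+CCl4 replicate 1, and 0, 1, 3 and 0 from WD+F+CCl4 replicates 1 and 2 and HFD+F+CCl4 replicates 2 and 3. Whether they are endothelial cells, droplets with a pair of cells, or macrophages with free RNA was not tested. The summed level of the 5 endothelial markers was 2303 and 2658 CPM (UMIs per 1000000 UMIs of the summed cells) in the chemokine-positive cells of WD+F+CCl4 replicate 3 and HFD+F+CCl4 replicate 1, 475 CPM in HFD+F+CCl4 replicate 2 and 11.1 to 48.2 CPM in the other mice, with Ptprb the most abundant gene and none of the 5 at 0. The main counts, and the results that moved, are therefore also given for the 1173 cells with fewer than 2 endothelial UMIs (88.8% of which had 3 or more macrophage markers), a limit set after the endothelial-marked cells had been seen. Because the label was not settled for those cells, the 1434 cells are called Cxcl9/Cxcl10-high cells below.

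Markers of other cell types were common at low counts. In 971 cells (67.7%) there were 2 or more UMIs of markers of other lineages, against 58.0% of the other Csf1r+ cells. The summed level of 5 erythroid markers was 4936 CPM in the Cxcl9/Cxcl10-high cells of HFD+F+CCl4 replicate 2 and 1026 CPM in its other Csf1r+ cells, and that of 5 hepatic stellate cell markers was 434 and 490 CPM in HFD+F+CCl4 replicate 1. Counts without all cells carrying such markers are given with the comparisons. T cell markers with 10 or more UMIs were found in 1 cell, B cell markers in 3, hepatocyte markers in 44 and neutrophil markers in 93 (6.49%, against 8.03% of the other Csf1r+ cells). Xcr1, a marker of type 1 dendritic cells, was seen in 48 cells (3.35%, against 0.740%). The Kupffer cell gene Vsig4 was seen in 6.07% (4.13% of the others), Timd4 in 0.976% (0.585%) and a single UMI of Clec4f in 6.83% (3.90%). Ly6c2 and Ccr2, which mark classical monocytes, were seen together in 31.5% of the cells and 22.6% of the shallower other Csf1r+ cells, and 3 or more UMIs of Trem2 and Gpnmb in 36.6 and 30.1%. Of the 1434 barcode sequences, 24 (1.67%) also occurred among the kept barcodes of another library, against 1.82% of all kept barcodes.

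The Cxcl9/Cxcl10-high cells were unevenly spread over the mice. In WD+F+CCl4 mice there were 114 among 6473 Csf1r+ cells (1.76%, 95% Wilson interval 1.47 to 2.11%), 120 among 5954 (2.02%, 1.69 to 2.40%) and 387 among 6014 (6.43%, 5.84 to 7.08%) in replicates 1 to 3. In HFD+F+CCl4 mice there were 346 among 6788 (5.10%, 4.60 to 5.65%), 131 among 5429 (2.41%, 2.04 to 2.86%) and 336 among 6991 (4.81%, 4.33 to 5.33%). The intervals cover counting error only. The shares of 3 mice lay between 1.76 and 2.41% and those of the other 3 between 4.81 and 6.43%, with both models in each range.

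**Figure D1:**
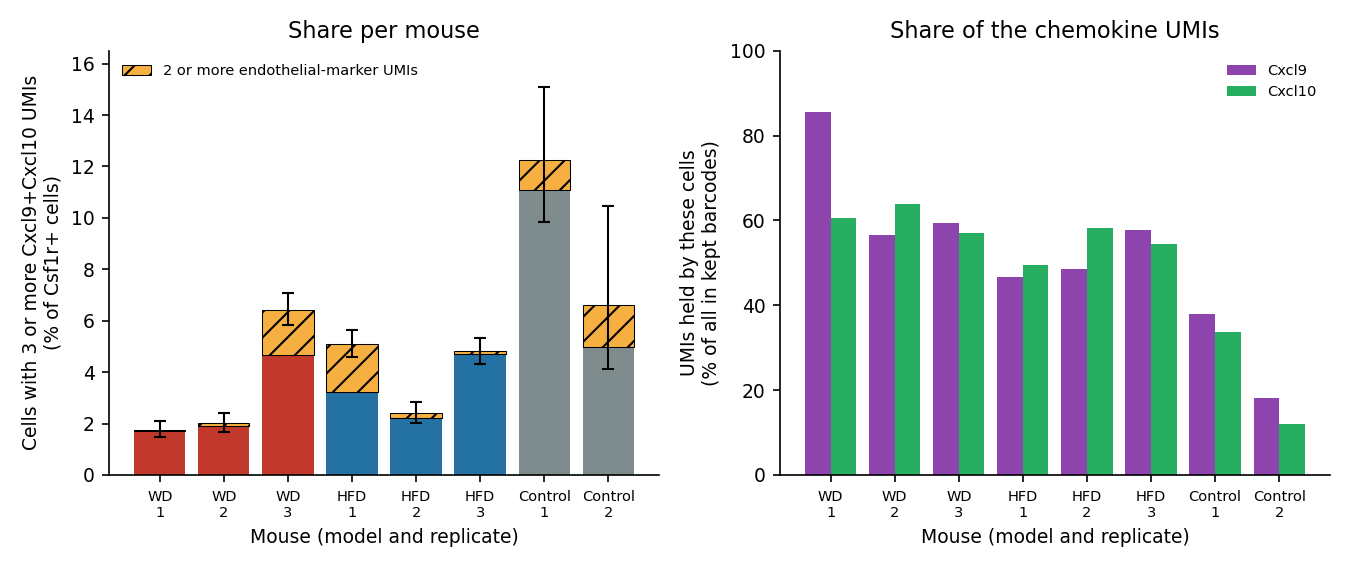
Left, share of Csf1r+ cells that were Cxcl9/Cxcl10-high, in percent, per mouse (bars with 95% Wilson intervals; orange hatched parts are cells with 2 or more endothelial-marker UMIs). Right, percent of all Cxcl9 (purple) and Cxcl10 (green) UMIs of a mouse's kept barcodes that these cells held. WD+F+CCl4 replicate 3 had the highest share of the NASH mice (6.43%) and WD+F+CCl4 replicate 1 the lowest (1.76%), and both Control mice lay above all 6 NASH mice (12.2 and 6.61%).

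Although they were few, these cells held much of the chemokine RNA captured from the whole liver. They carried 85.7, 56.5 and 59.4% of all Cxcl9 UMIs in the kept barcodes of WD+F+CCl4 replicates 1 to 3 and 46.6, 48.5 and 57.7% in HFD+F+CCl4 replicates 1 to 3. For Cxcl10 the shares were 60.5, 63.9 and 57.0%, and 49.6, 58.1 and 54.4%. The rule selects cells with such UMIs, so these shares describe how concentrated the RNA was and not a difference between cell types. Outside the Csf1r+ cells, 17.3% of 1741 endothelial cells without Csf1r had 3 or more chemokine UMIs, against 1.29% of T cells and 0.287% of B cells.

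Among the chemokine ligands, Cxcl9 was the more abundant in 5 of 6 mice. Its level in the Cxcl9/Cxcl10-high cells was 772, 1914 and 1692 CPM in WD+F+CCl4 replicates 1 to 3 and 936, 1583 and 1540 CPM in HFD+F+CCl4 replicates 1 to 3 (1406 ± 450, SD, n = 6). Cxcl10 was at 779, 967, 733, 637, 711 and 598 CPM in the same order (737 ± 130, SD, n = 6). WD+F+CCl4 replicate 1 stood apart, with about equal levels of both. These levels come from a 3′ tag per molecule, which does not scale with transcript length, but the efficiency of capture may differ between genes.

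In most single cells UMIs of only 1 of the 2 chemokines were caught. Cxcl9 alone was seen in 581 cells, Cxcl10 alone in 533 and both in 320. The cells held a median of 6 UMIs of the 2 genes together. How often the second gene was missed at such low counts was not tested, so these numbers do not show separate kinds of cell. Cxcl9 had more UMIs than Cxcl10 in 763 cells (53.2%, called Cxcl9-led), Cxcl10 had more in 664 (46.3%, Cxcl10-led), and 7 were tied. The share of Cxcl9-led cells per mouse was 29.8, 46.7 and 60.5% in WD+F+CCl4 and 48.8, 55.7 and 58.6% in HFD+F+CCl4 replicates 1 to 3. Among the 163 cells with endothelial markers 87.1% were Cxcl9-led, against 48.9% of the other 1271.

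The summed number of chemokine UMIs had a median of 6 and reached 266. At the limit of the rule stood 297 cells with exactly 3 UMIs (20.7%), and 115 cells had 50 or more. Just outside were 587 Csf1r+ cells with 2 UMIs. The levels on both sides of the limit were alike for the other marker genes: Il1rn averaged 153 CPM at 3 UMIs and 153 CPM at 2, Gpr84 43.2 and 46.7 CPM, and Acod1 68.6 and 70.3 CPM. The limit of 3 UMIs thus lies within a continuous range.

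**Figure D2:**
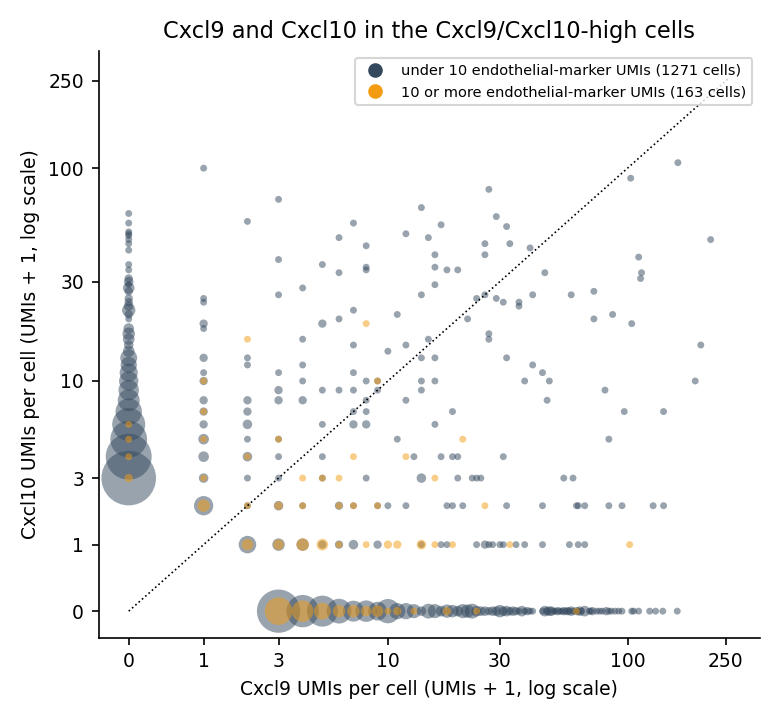
Cxcl9 and Cxcl10 UMIs per cell (each plus 1, log axes) in the 1434 Cxcl9/Cxcl10-high cells of the 6 NASH mice. The area of a point grows with the number of cells at that pair of values, orange points are the 163 cells with 10 or more endothelial-marker UMIs, and the dotted line marks equal numbers. Many cells lie along one axis or the other, and 142 of the orange cells have more Cxcl9 than Cxcl10.

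Il1rn, Gpr84 and Acod1 were the further marker genes that came with the label, and they are described without a test here and below. Il1rn encodes the antagonist of the interleukin-1 receptor, Gpr84 a receptor for medium-chain fatty acids, and Acod1 the mitochondrial enzyme that makes itaconate. Il1rn was seen in 34.5% of the Cxcl9/Cxcl10-high cells, 20.3% of the other Csf1r+ cells and 1.63% of B cells (median 1700 UMIs per cell). Gpr84 was seen in 18.3, 8.73 and 0.239%, and Acod1 in 21.1, 9.25 and 0.766%. Most Cxcl9/Cxcl10-high cells thus had no UMI of any one of these 3 genes.

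The 3 genes varied more between mice than between the cell groups. Il1rn was at 103, 240 and 90.2 CPM in the Cxcl9/Cxcl10-high cells of WD+F+CCl4 replicates 1 to 3 and at 94.4, 84.6 and 488 CPM in HFD+F+CCl4 replicates 1 to 3, against 61.9 to 308 CPM in the other Csf1r+ cells. It was higher in the Cxcl9/Cxcl10-high cells in 5 of 6 mice (mean log2 fold change 0.63 ± 0.15 SE). Gpr84 ran from 23 to 90.3 CPM (median 35.3) against 11.4 to 65.7 (median 22.8), and was higher in 6 of 6 mice (log2 fold change 0.75 ± 0.16 SE). Acod1 ran from 25.7 to 247 CPM (median 71.3) against 16.7 to 129 (median 25.5), and was higher in 5 of 6 mice (log2 fold change 1.30 ± 0.26 SE). HFD+F+CCl4 replicate 3 had the highest level of all 3 genes in both cell groups, and the ranges of the groups overlapped for each gene.

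The promoters of Cxcl9 and Cxcl10 are shown because these genes define the cells, and those of Gbp2, Gbp5 and Serpina3g because they were among the genes most raised in them. Each sequence is the 250 bases before a RefSeq transcription start in GRCm38.p6, written 5′ to 3′ along the gene's strand, in lower case with matches to 3 motifs in capitals: the interferon-stimulated response element (ISRE, spelled GAAA, 2 bases of any kind and GAAA), the interferon-γ activated site (GAS, TTCNNNGAA) and the NF-κB site (kB, GGGNNTTCC), searched on both strands. Cxcl9 (chr5:92328080-92328329, minus strand) held 2 kB matches, 130 to 122 and 42 to 34 bases before the start. Cxcl10 (chr5:92348890-92349139, minus strand) held an ISRE 213 to 204 and a kB match 103 to 95 bases before it. Gbp2 (chr3:142620413-142620662, plus strand) held an ISRE at 59 to 50, and Gbp5 (chr3:142496684-142496933, plus strand) an ISRE at 165 to 156 and GAS matches at 245 to 237 and 52 to 44. Serpina3g (chr12:104235897-104236146, plus strand) held a kB match at 84 to 76 and a GAS match at 33 to 25. The promoters of Ccl12, Gpr84 and Acod1 and the 3 of Il1rn, searched in the same way, held no match to these motifs and are not shown.
Cxcl9: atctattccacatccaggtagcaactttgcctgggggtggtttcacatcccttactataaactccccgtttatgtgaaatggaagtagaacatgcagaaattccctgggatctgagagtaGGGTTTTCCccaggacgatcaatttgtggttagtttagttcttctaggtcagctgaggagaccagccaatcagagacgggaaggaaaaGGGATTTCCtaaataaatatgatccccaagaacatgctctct
Cxcl10: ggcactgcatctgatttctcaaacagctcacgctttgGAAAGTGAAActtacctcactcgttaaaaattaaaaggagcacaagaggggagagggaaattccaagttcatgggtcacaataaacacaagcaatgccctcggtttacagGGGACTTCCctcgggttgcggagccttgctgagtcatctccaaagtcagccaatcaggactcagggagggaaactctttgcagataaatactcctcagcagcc
Gbp2: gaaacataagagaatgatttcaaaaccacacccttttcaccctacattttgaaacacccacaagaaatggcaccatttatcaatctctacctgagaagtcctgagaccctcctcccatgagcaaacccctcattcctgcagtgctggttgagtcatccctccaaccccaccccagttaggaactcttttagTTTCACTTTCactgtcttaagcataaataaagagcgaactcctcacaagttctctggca
Gbp5: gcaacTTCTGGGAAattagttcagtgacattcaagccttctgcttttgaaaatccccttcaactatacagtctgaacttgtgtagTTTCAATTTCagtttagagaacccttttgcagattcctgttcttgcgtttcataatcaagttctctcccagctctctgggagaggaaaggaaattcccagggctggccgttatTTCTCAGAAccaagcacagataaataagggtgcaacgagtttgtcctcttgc
Serpina3g: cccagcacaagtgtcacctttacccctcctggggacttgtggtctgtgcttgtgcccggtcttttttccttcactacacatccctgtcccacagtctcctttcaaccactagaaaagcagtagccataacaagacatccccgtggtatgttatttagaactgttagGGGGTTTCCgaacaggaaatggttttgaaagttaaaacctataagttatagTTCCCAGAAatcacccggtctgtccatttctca
Over all 32851 mouse promoters in the table, 2.98% held an ISRE, 7.02% a GAS match and 4.98% a kB match. The next shares count genes with a match in any of their promoters, so they are not on the scale of the shares over single promoters. Of the genes higher in the Cxcl9/Cxcl10-high cells, 71 of 801 (8.86%) held an ISRE. This was so for 350 of 9994 tested genes with a promoter (3.50%) and 20 of 555 genes that were lower (3.60%). A GAS match was in 8.24% of higher, 7.19% of tested and 10.1% of lower genes, and a kB match in 9.24, 7.38 and 5.77%. The genes of the rule were not left out of these counts. A match of letters is not a bound site.

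Against the other Csf1r+ cells of the same mice, the Cxcl9/Cxcl10-high cells carried more RNA of interferon response genes, of other inflammatory chemokines and of the antigen-presentation machinery, and less RNA of patrolling monocyte genes. Serpina3g, a serine protease inhibitor made by activated immune cells, and the interferon-inducible GTPase genes Gbp2, Gbp5 and Iigp1 led the genes that were higher. Cd300e and Spn, both marks of patrolling monocytes, were among those that were lower. UMIs were summed per mouse and cell group, and edgeR's quasi-likelihood test with the mouse as a block and Benjamini-Hochberg adjustment called 1061 of 14266 genes higher (7.44%) and 765 lower (5.36%) at an adjusted p of 0.05. These counts, and those of the alternatives, include genes on which the choice of cells rests. Leaving those out, 1058 of 14261 genes were higher and 765 lower. A sum cannot tell more cells with a gene from more RNA per cell. Without cells carrying endothelial markers, 974 of 13435 genes were higher (7.25%) and 818 lower (6.09%), and 552 of the 1061 and 552 of the 765 were called again. When libraries were scaled by their totals only, 922 were higher and 1023 lower (47.4% higher, against 58.1% with TMM scaling). With comparison cells matched in depth, 504 were higher and 290 lower, and without WD+F+CCl4 replicate 3, 634 and 461. Without cells carrying markers of any other lineage, 5 mice were left and 638 were higher and 613 lower, of which 421 and 378 were among those called with all cells.

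Serpina3g stood at 102 to 360 CPM (median 212) in the Cxcl9/Cxcl10-high cells of the 6 NASH mice and at 10.2 to 32.2 CPM (median 21.6) in the other Csf1r+ cells, so the groups did not overlap. Its log2 fold change was 3.38 ± 0.20 (SE, adjusted p = 9.21e-08). It was also seen in 45.3% of T cells and 50.8% of endothelial cells without Csf1r, and its fold change without endothelial-marked cells was 3.60. Gbp2 stood at 221 to 501 CPM (median 385) against 28.9 to 84.4 CPM (median 46.1), again without overlap, with a log2 fold change of 2.94 ± 0.15 (SE, adjusted p = 6.72e-08). Gbp2 was seen in 53.7% of the Cxcl9/Cxcl10-high cells and 14.4% of the others, which were shallower (medians of 6534 and 4578 UMIs). It was seen in 2.35% of B cells (median 1700 UMIs), 12.1% of T cells and 15.3% of endothelial cells without Csf1r (median 3523 UMIs). The 14.4% was thus above the share of B cells and near those of T and endothelial cells. How much of it is free RNA was not tested. Iigp1 (log2 fold change 2.90), Gbp5 (2.86), Ifi205 (2.24), which encodes an interferon-inducible DNA-sensing family protein, and the antiviral genes Ifit1 and Rsad2 (2.09 each) were called too, and each kept a fold change of at least 2.15 on the log2 scale without endothelial-marked cells. Genes of the Gbp, Ifit, Serpina3 and Ifi200 families have close copies, and how reads were shared between copies could move single members.

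Other leading genes are also expressed by endothelial cells. Kdr was at 494 and 620 CPM in WD+F+CCl4 replicate 3 and HFD+F+CCl4 replicate 1, at 126 CPM in HFD+F+CCl4 replicate 2 and at 9.60 to 24.1 CPM in the other mice. Its log2 fold change was 2.29 ± 0.26 (SE, adjusted p = 3.30e-05), and 0.34 without the endothelial-marked cells. Kdr is one of the genes that mark those cells, so leaving them out lowers it by construction, and nothing is concluded from that fall. Dnase1l3, a secreted DNase of liver macrophages, dendritic cells and sinusoidal endothelium, kept its call (2.71, and 2.04 without those cells).

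Among the genes that were lower, Cd300e, an activating receptor of patrolling monocytes, was at 19.8 to 50.6 CPM (median 44.5) in the Cxcl9/Cxcl10-high cells and at 75.2 to 265 CPM (median 117) in the others, without overlap. Its log2 fold change was -1.77 ± 0.18 (SE, adjusted p = 1.29e-05). Spn, which encodes CD43, followed at -1.22. The neutrophil granule gene Ngp (-2.13) and Retnlg (-1.76), a resistin-like gene of neutrophils, were lower as well, beside a summed neutrophil marker level of 1842 against 3272 CPM. Retnlg was at 0.04 with depth-matched comparison cells, and Ngp was not tested there. The secreted chaperone gene Clu (-1.94), the muscle enolase gene Eno3 (-1.38), the ribonuclease gene Ear2 (-1.11), the lipid phosphodiesterase family gene Smpdl3b (-1.11), the MAP kinase phosphatase gene Dusp16 (-1.06) and Ldlrad3 (-1.06) completed the set, and each was lower in 6 of 6 mice.

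**Figure D3:**
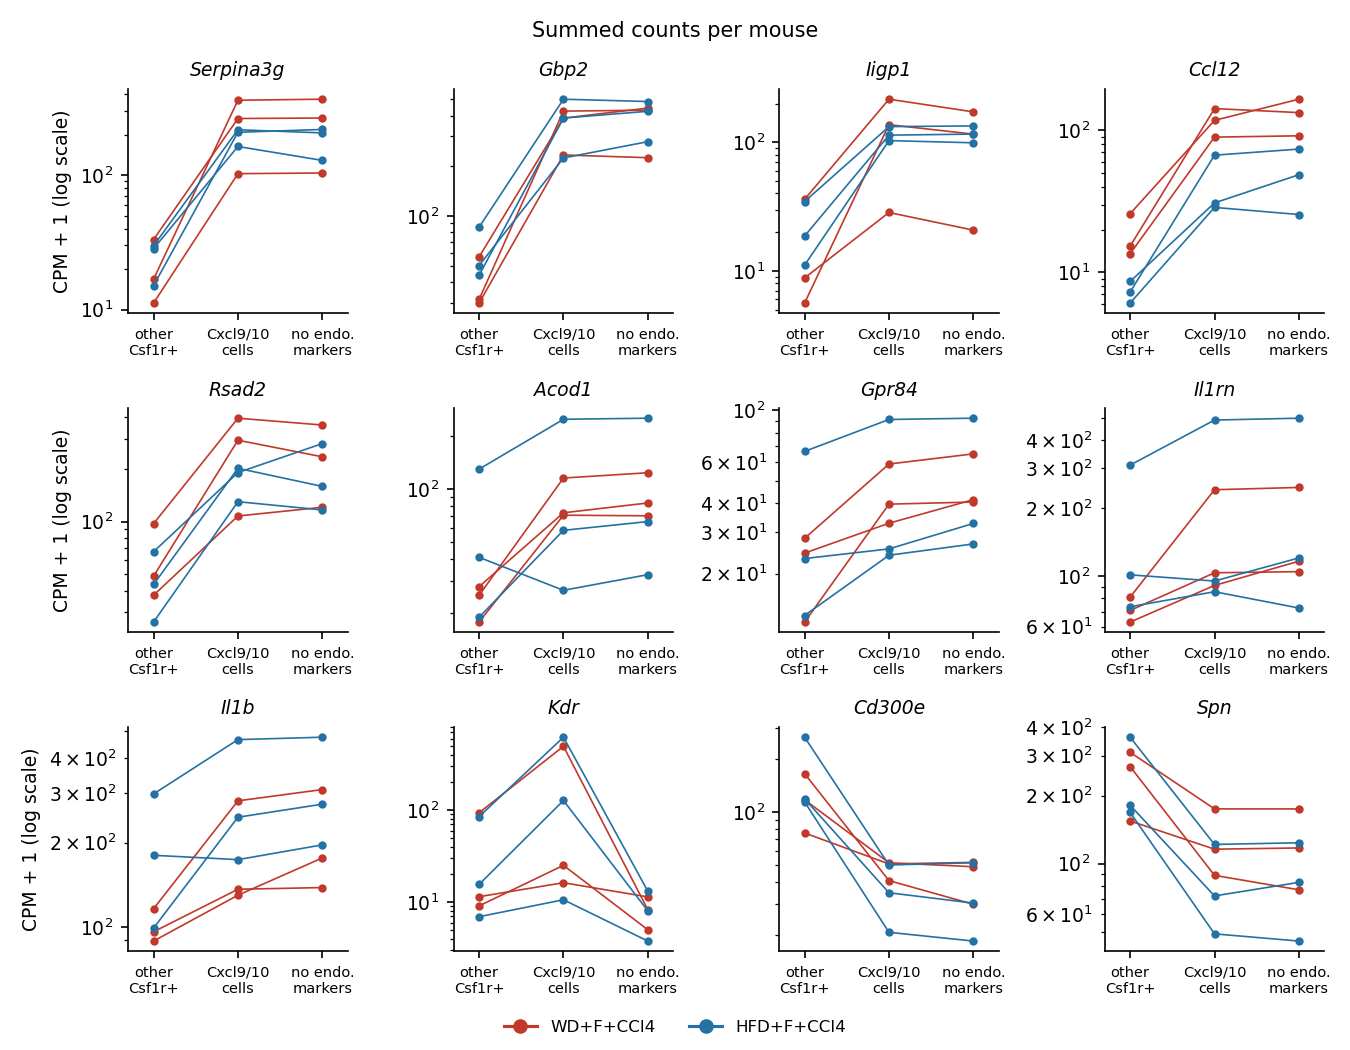
Level of 12 genes (CPM plus 1, log axis) from UMIs summed per mouse, in other Csf1r+ cells, in the Cxcl9/Cxcl10-high cells and in the Cxcl9/Cxcl10-high cells without endothelial markers. Lines join the values of a mouse (red WD+F+CCl4, blue HFD+F+CCl4). Gbp2 and Serpina3g are above the other Csf1r+ cells in every mouse and stay there without endothelial-marked cells, and Cd300e is below in every mouse. Kdr, one of the genes that mark the endothelial-marked cells, falls by construction when they are left out.

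The interferon-γ response list held 27 tested genes, of which 26 were higher, none was lower and 1 was not called (median log2 fold change 1.55, against -0.01 over all genes tested). Irf8, a transcription factor of myeloid cells, was higher by 0.53 ± 0.08 (SE, adjusted p = 3.07e-04) and the GTPase gene Ifi47 by 1.60 ± 0.09 (adjusted p = 9.21e-08). The gene not called was Ubd, which encodes a ubiquitin-like protein (1.08, adjusted p = 0.341). The counts were the same without endothelial-marked cells (26 of 27 higher, median 1.65). Of the 17 genes of this list with a promoter sequence, 12 held an ISRE and 9 a GAS match in any of their promoters. These shares describe how the list was chosen and say nothing about the cells.

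Type I interferon response genes were higher in 33 of 34 cases and lower in none (median 0.99). Examples were Slfn5 (0.78), the regulator of interferon production Irf7 (1.03), the DNA sensor family gene Ifi204 (0.67) and the tethering protein gene Bst2 (0.53). Slfn4 was the highest gene not called (0.36, adjusted p = 0.310). Rsad2 was at 107 to 393 CPM (median 196) against 25.4 to 96.2 CPM (median 44.9), and the Cxcl9/Cxcl10-high cells were the higher group in 6 of 6 mice. The count was again 33 of 34 without endothelial-marked cells.

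Of 33 tested NF-κB and Toll-like receptor response genes, 20 were higher and none was lower (median 0.45), and 24 were higher and 1 lower (Il10, -1.23, named after its value was seen) without endothelial-marked cells. The inhibitor gene Nfkbia was higher by 0.45, the cytoskeletal regulator gene Marcksl1 by 1.08, the mitochondrial superoxide dismutase gene Sod2 by 0.38 and the adhesion molecule gene Icam1 by 0.94. Tnfaip2 was not called (0.35, adjusted p = 0.0923). Il1b, the gene of the cytokine interleukin-1β, was at 129 to 465 CPM (median 209) against 88.0 to 297 CPM (median 107), with overlapping ranges. It was higher by 0.74 ± 0.14 (SE, adjusted p = 0.00248, and by 0.90 without endothelial-marked cells) and in 5 of 6 mice, and Tnf was higher by 0.59 (adjusted p = 0.0103).

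Among 17 tested chemokine ligands other than Cxcl9, Cxcl10 and Cxcl11, 10 were higher and 1 lower (median 0.99). Ccl2, which recruits monocytes through CCR2, was at 43.3 to 470 CPM (median 206) against 16.4 to 134 CPM (median 49.5), and was higher by 1.94 ± 0.11 (SE, adjusted p = 6.82e-08). Ccl12, another mouse ligand of CCR2, was higher by 2.71, Ccl4, which attracts monocytes and T cells, by 1.44 and Cxcl16 by 0.71. Ccl6 was the gene that was lower (-0.23, adjusted p = 0.0135), but it was not called without endothelial-marked cells (-0.08). Ccl9 was not called (-0.08, adjusted p = 0.543).

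Cxcl11, the third ligand of CXCR3, is annotated in C57BL/6 as a polymorphic pseudogene, yet its UMIs were almost limited to the Cxcl9/Cxcl10-high cells among the Csf1r+ cells. It entered the fit through the group where it is high, so its values are a description, with no test. It was at 34.6, 43.4 and 24.1 CPM in WD+F+CCl4 replicates 1 to 3 and at 6.54, 36.5 and 23.4 CPM in HFD+F+CCl4 replicates 1 to 3. In the other Csf1r+ cells the highest of the 6 mice was 0.382 CPM. A UMI was held by 81 of the 1434 cells against 28 of 36215.

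Chemokine receptors were mixed, with 1 of 9 higher and 2 lower (Cx3cr1, the fractalkine receptor of patrolling monocytes, at -0.52, and Cxcr4 at -0.43). Without endothelial-marked cells 3 were higher and 2 lower (median 0.22). With depth-matched cells none was higher and 2 were lower, and Cxcr4 was not called (-0.17, adjusted p = 0.368). The median of the receptor list was -0.01 and changed sign with the scaling (0.01 with relative log expression factors, -0.06 with library totals). Ccr2 was not called (0.10, adjusted p = 0.491).

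Antigen presentation genes were higher by small amounts. Of 11 class II genes, 10 were higher and none lower (median 0.59), and 11 without endothelial-marked cells (0.76). Cd74, the invariant chain, was at 6293 to 16012 CPM (median 12954) against 4008 to 10883 CPM (median 9118), ranges that overlapped between mice although the difference within mice was 0.62 ± 0.05 on the log2 scale (SE, adjusted p = 1.83e-06). H2-Aa was higher by 0.61, H2-Ab1 by 0.66 and H2-Eb1 by 0.59, while the protease gene Ctss was not called (0.04, adjusted p = 0.712). Of 19 class I genes, 16 were higher and none lower (median 0.55, and 17 without endothelial-marked cells), with H2-K1 at 0.17, the proteasome activator gene Psme1 at 0.55, the immunoproteasome gene Psmb8 at 0.61 and Tapbp, a chaperone of peptide loading, at 0.45. B2m was not called (0.14, adjusted p = 0.0731). Markers of type 1 dendritic cells, which present antigen, summed to 191 CPM in the Cxcl9/Cxcl10-high cells against 111 CPM in the others (means over 6 mice, 5 genes, Wdfy4 the most abundant and none at 0), and to 294 against 134 and 303 against 124 CPM in HFD+F+CCl4 replicates 2 and 3. Without cells carrying dendritic cell markers Cd74 was higher by 0.70, H2-Aa by 0.68, H2-Ab1 by 0.71 and H2-Eb1 by 0.66, 8 of the 11 class II genes were called higher (median 0.68), and in all 931 genes were higher and 713 lower.

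Of 14 costimulatory and checkpoint ligands 7 were higher and 3 lower (median 0.45). Slamf8 (1.51), Slamf7 (0.76) and Lgals9 (0.51), which encodes galectin-9, were higher, and Vsir, a checkpoint ligand, was lower (-0.28, but -0.16 and not called without endothelial-marked cells, adjusted p = 0.107). The other genes that were lower, named after their values were seen, were Pdcd1lg2 (-1.06), which encodes PD-L2, and Tnfsf15 (-0.99). The counts were 8 higher and 2 lower without endothelial-marked cells, and 7 and 1 with depth-matched cells. Cd274, which encodes PD-L1, was higher by 0.39 ± 0.12 (SE, adjusted p = 0.0393) and in 4 of 6 mice. Fas was not called (0.16, adjusted p = 0.285). In arginine and nitric oxide metabolism 1 of 7 tested genes was higher, Odc1 of polyamine synthesis (0.46), with 3 without endothelial-marked cells, and none with depth-matched cells or without WD+F+CCl4 replicate 3. Ass1 was not called (0.26, adjusted p = 0.268). Nos2, the inducible nitric oxide synthase, did not pass the filter on low counts, with 0 to 3.62 CPM in the 6 mice.

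Of 18 glycolysis genes 9 were higher and none lower (median 0.23), with Pkm at 0.23, Ldha at 0.22, Tpi1 at 0.30 and Hif1a, the regulator of the hypoxic response, at 0.33. The count of 9 was 4 with library totals as scaling, 4 without WD+F+CCl4 replicate 3, 3 with depth-matched cells and 12 without endothelial-marked cells. Gapdh was not called (0.16, adjusted p = 0.105).

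The lists for macrophage and monocyte identity moved apart. All of the 10 patrolling monocyte genes had a negative fold change and 9 were called lower (median -0.86), among them the integrin gene Itgal (-0.57), the transcription factor genes Pou2f2 (-0.57) and Nr4a1 (-0.74), and Spn. Fabp4, which endothelial cells also express, was the gene not called (-0.29, adjusted p = 0.653), and it was called without endothelial-marked cells (-1.47), giving 10 of 10. With depth-matched cells 8 of 10 were called lower (median -0.49), with Itgal at -0.34 and Pou2f2 at -0.31. Without cells marked by other lineages 10 of 10 were lower (median -1.56). Spn was at 48.0 to 174 CPM (median 101) against 153 to 361 CPM (median 224), with a slight overlap between mice.

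Of 22 lipid-associated macrophage genes 1 was higher and 6 were lower (median -0.14), including the osteopontin gene Spp1 (-0.77 ± 0.15, SE, adjusted p = 0.00293), Gpnmb (-0.69), Fabp5 (-0.46) and the cathepsin gene Ctsd (-0.35). The gene that was higher, named after its value was seen, was the metalloproteinase gene Mmp14 (0.37). Apoe was not called (-0.10, adjusted p = 0.382). With depth-matched cells 10 were lower and none higher, and Spp1 was at -1.45. When every cell with markers of other lineages was left out the list's median was 0.03, and Spp1 turned to 0.18 and was not called. Of 12 Kupffer cell genes 2 were higher and 1 lower (median -0.18, and 0.10 without endothelial-marked cells). The scavenger receptor gene Marco was lower (-1.07) and the transcription regulator gene Id3 higher (0.32), while Cdh5, which encodes VE-cadherin and is also an endothelial gene, was higher by 1.62 with and 0.12 without endothelial-marked cells (adjusted p = 0.787). Hmox1 was not called (-0.10, adjusted p = 0.702).

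Of 15 complement and resident macrophage genes 7 were higher and none lower (median 0.27), with 6 and 1 without endothelial-marked cells or without WD+F+CCl4 replicate 3, and 3 and 2 of 14 with depth-matched cells (median 0.06). C1qa, C1qb and C1qc, the subunits of complement C1q, were higher by 0.37, 0.33 and 0.27, and the transcription factor gene Maf by 0.48 (0.21 without endothelial-marked cells). With depth-matched comparison cells none of the 3 C1q genes was called (adjusted p = 0.131, 0.154 and 0.473). Selenop was not called (0.31, adjusted p = 0.158). Of 14 classical monocyte genes 2 were higher, Ms4a4c (0.68) and Ly6c2 (0.40), and 2 lower, S100a4 (-0.21) and Hp (-0.45), with 6 higher and 1 lower without endothelial-marked cells, 4 and none without WD+F+CCl4 replicate 3 and 1 and 3 with depth-matched cells. S100a4 was not called without endothelial-marked cells (-0.08), and Ly6c2 and Hp were not called with depth-matched cells (adjusted p = 0.0740 and 0.0619). Lyz2 was not called (-0.10, adjusted p = 0.374).

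Of 15 immediate early and heat shock genes, which can rise during tissue digestion, 2 were higher (the stress-response gene Atf3 at 0.43 and the chaperone gene Hspa8 at 0.26) and 1 was lower (Ier2, -0.41). Their median was 0.01, and -0.04 with library totals. Without endothelial-marked cells 5 were higher and 2 lower, and with depth-matched cells 4 were higher and none lower, Ier2 then being at -0.14 (adjusted p = 0.418). Jun was not called (-0.11, adjusted p = 0.356). Among 15 growth factor and matrix genes 1 was lower (Igf1, -0.41) and none higher. Igf1 was not called without endothelial-marked cells (-0.30, adjusted p = 0.0678), where 2 of 14 genes were higher and none lower, and none was called with relative log expression factors or without WD+F+CCl4 replicate 3 or HFD+F+CCl4 replicate 1. With library totals 3 were lower and with depth-matched cells 2. Tgfb1 was not called (0.13, adjusted p = 0.157).

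**Figure D4:**
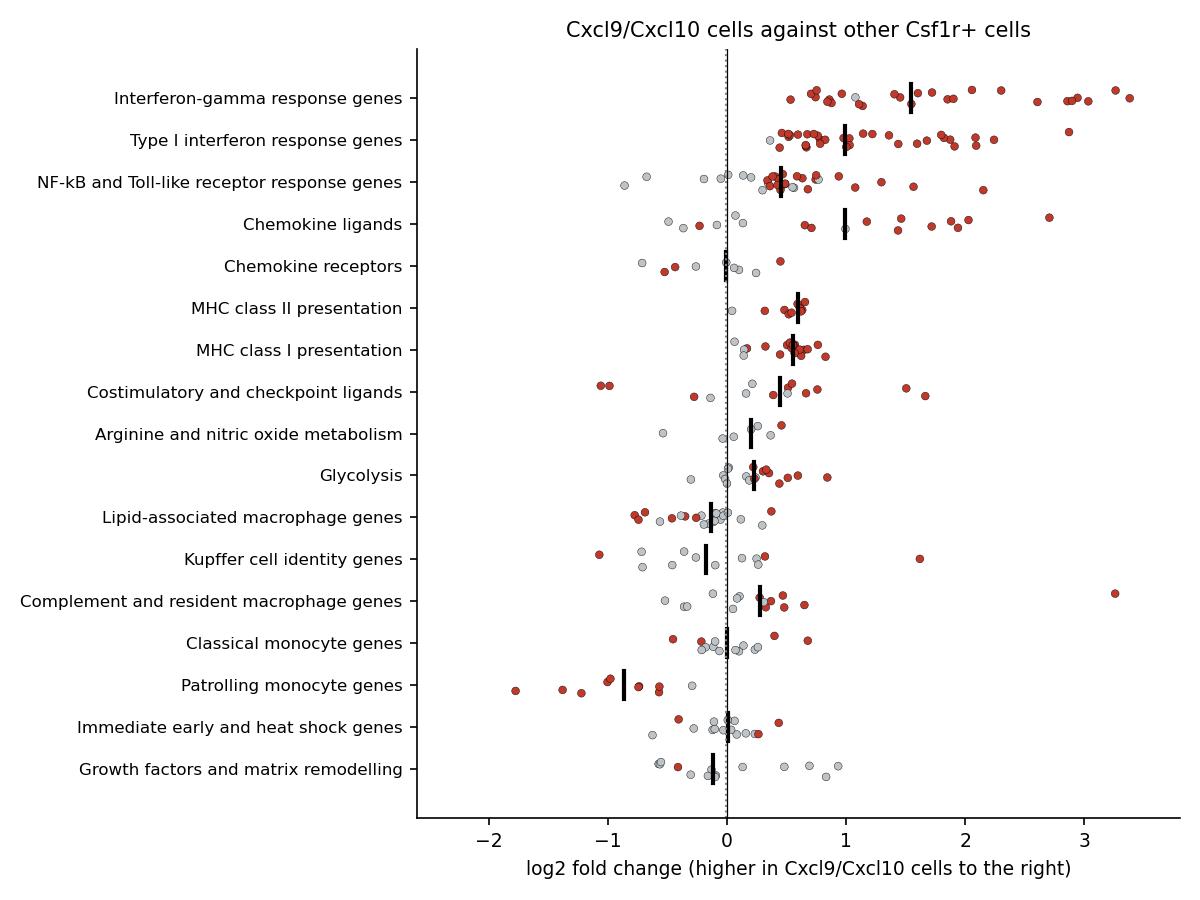
Log2 fold change of Cxcl9/Cxcl10-high cells against other Csf1r+ cells (x axis) for the genes of each list (rows). Points are genes, red where the adjusted p is under 0.05, black bars are list medians and the dotted line is the median of all genes. The interferon-γ and type I interferon rows lie almost wholly to the right (26 of 27 and 33 of 34 genes called higher) and the patrolling monocyte row to the left (9 of 10 called lower).

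The Cxcl9-led and Cxcl10-led cells differed from each other within the same mice. Cxcl10-led cells had more RNA of Ccl12, Cxcl2, Ccl7 and Ccl2, of interleukin-1β, and of most type I interferon and classical monocyte genes tested. Cxcl9-led cells had more RNA of Dnase1l3, Flt1 and Clec9a. The summed level of 5 neutrophil markers also differed, with means over 6 mice of 928 CPM in Cxcl9-led and 3100 CPM in Cxcl10-led cells. It was 963 against 10556 CPM in HFD+F+CCl4 replicate 3 and 718 against 2784 CPM in WD+F+CCl4 replicate 2. Only WD+F+CCl4 replicate 3 went the other way (731 against 290 CPM). Whether neutrophil RNA is a part of the difference was not tested. The edgeR quasi-likelihood test with a mouse block called 243 of 7622 genes higher (3.19%) and 446 lower (5.85%) in Cxcl9-led cells. These counts, and those of the alternatives, include genes on which the choice of cells rests. Leaving those out, 242 of 7619 genes were higher and 444 lower. With library totals as scaling the counts were 308 and 363 (45.9% higher, against 35.3%). DESeq2 called 98 higher and 314 lower, a limit of 5 chemokine UMIs gave 129 and 316, and genes kept at 1 count gave 835 and 598. Without endothelial-marked cells 162 genes were higher and 359 lower, of which 67 and 301 were among those called with all cells. Without WD+F+CCl4 replicate 3 there were 90 higher and 298 lower, without HFD+F+CCl4 replicate 1 there were 138 and 339, and there were 23 higher and 40 lower over the 3 mice left when cells with markers of any other lineage were dropped, of which 13 and 37 were among those called with all cells.

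Ccl12 was at 3.15 to 43.1 CPM (median 11.8) in Cxcl9-led cells and at 61.0 to 262 CPM (median 140) in Cxcl10-led cells, without overlap. Its log2 fold change was -3.29 ± 0.22 (SE, adjusted p = 5.90e-07). Il1b was at 55.9 to 173 CPM (median 86.7) against 150 to 931 CPM (median 365), a log2 fold change of -2.08 ± 0.24 (SE, adjusted p = 7.10e-05). The neutrophil chemokine gene Cxcl2 (-2.66), the monocyte chemokine genes Ccl7 (-2.28) and Ccl2 (-2.27), the inflammatory chemokine genes Ccl4 (-2.25) and Ccl3 (-1.86), the interferon-induced genes Ifit1bl1 (-2.35) and Rsad2 (-2.14) and the proteoglycan gene Vcan of classical monocytes (-1.97) completed the genes with the largest decreases. All 10 kept their call without endothelial-marked cells, with log2 fold changes of -3.01 to -1.51.

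On the other side, Dnase1l3 was higher in Cxcl9-led cells by 2.74 ± 0.19 (SE, adjusted p = 7.01e-07), and by 2.18 without endothelial-marked cells. Gng11 (2.58), the vascular endothelial growth factor receptor gene Flt1 (2.45), the stem cell factor receptor gene Kit (2.32), Nedd4 (2.28), Igfbp4 (1.91) and Cnn3 (1.82) were higher too. Without endothelial-marked cells Gng11, Kit, Nedd4 and Igfbp4 fell under the filter on low counts, while Flt1 (1.57) and Cnn3 (1.49) kept their call. Clec9a, a receptor of type 1 dendritic cells, was higher by 2.05 ± 0.37 (SE, adjusted p = 0.00192) and the aminopeptidase gene Anpep by 1.87, and their fold changes were 2.29 and 2.35 without endothelial-marked cells.

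By list, type I interferon genes were lower in Cxcl9-led cells in 23 of 34 cases and higher in none (median -0.77, against 0.02 over all genes tested). NF-κB and Toll-like receptor genes were lower in 19 of 27 and higher in none (median -0.85), classical monocyte genes lower in 12 of 14 and higher in none (-0.93), and immediate early genes lower in 11 of 15 and higher in none (-0.84). Of 15 chemokine ligands 8 were lower and 3 higher, and the latter, named after their values were seen, were Ccl5 (1.29), Ccl8 (1.88) and Ccl22 (3.13). Without endothelial-marked cells 7 of 13 ligands were lower and 1 higher. Interferon-γ response genes were divided, with 3 higher and 6 lower of 23 and a median of -0.02 (4 higher, 3 lower and 0.24 without endothelial-marked cells). The 3 that were higher, named after their values were seen, were Gbp2 (1.46), Serpina3g (1.18) and Ciita (0.95), the activator of class II genes. Over the 3 mice left without cells marked by other lineages, 6 of 32 type I interferon genes, 4 of 27 NF-κB and Toll-like receptor genes, 3 of 14 immediate early genes and 9 of 13 classical monocyte genes were lower.

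Class II genes had positive fold changes in 10 of 11 cases, but only H2-Oa (1.14, named after its value was seen) was called with all cells (median 0.37). With fewer cells, 10 of 11 were called higher without endothelial-marked cells (median 0.65) and 9 of 11 without HFD+F+CCl4 replicate 1. Markers of type 1 dendritic cells summed to 245 CPM in Cxcl9-led and 123 CPM in Cxcl10-led cells (means over 6 mice, 5 genes, Wdfy4 the most abundant and none at 0), and to 308, 385 and 446 against 149, 152 and 77.4 CPM in WD+F+CCl4 replicate 1 and HFD+F+CCl4 replicates 2 and 3. In WD+F+CCl4 replicate 2 they were lower, at 93.5 against 131 CPM, and in the other 2 mice about equal (108 against 99.9 and 130 against 128 CPM). When cells with a UMI of the dendritic cell genes Flt3, Xcr1, Ccr7 or Siglech were left out, an alternative chosen after seeing the data, no class II gene of 10 tested was called in either direction (median 0.27) and Clec9a fell under the filter on low counts, while 189 genes were higher and 365 lower, of which 161 and 333 were among those called with all cells. Class I genes were called higher in 1 of 19 cases with all cells (H2-Q7, 0.80, named after its value was seen), 7 of 19 with library totals and 8 of 18 without endothelial-marked cells. The number of presentation genes called thus rose in both classes when endothelial-marked cells were left out, and in class I with library totals. Leaving out cells with dendritic cell markers changed the class II calls little, from 1 of 11 to none of 10. The causes were not tested.

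The other CXCR3 ligand and the label's markers did not follow one pattern. Cxcl11 did not pass the test between the 2 kinds of cell (log2 fold change -0.23 ± 0.27, SE, adjusted p = 0.715). The log2 fold change of Il1rn was -0.12 ± 0.22 (SE). Gpr84 had medians over 6 mice of 17.3 CPM in Cxcl9-led and 50.8 CPM in Cxcl10-led cells (log2 fold change -1.33), and Acod1 of 35.5 and 98.6 CPM (-1.42).

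**Figure D5:**
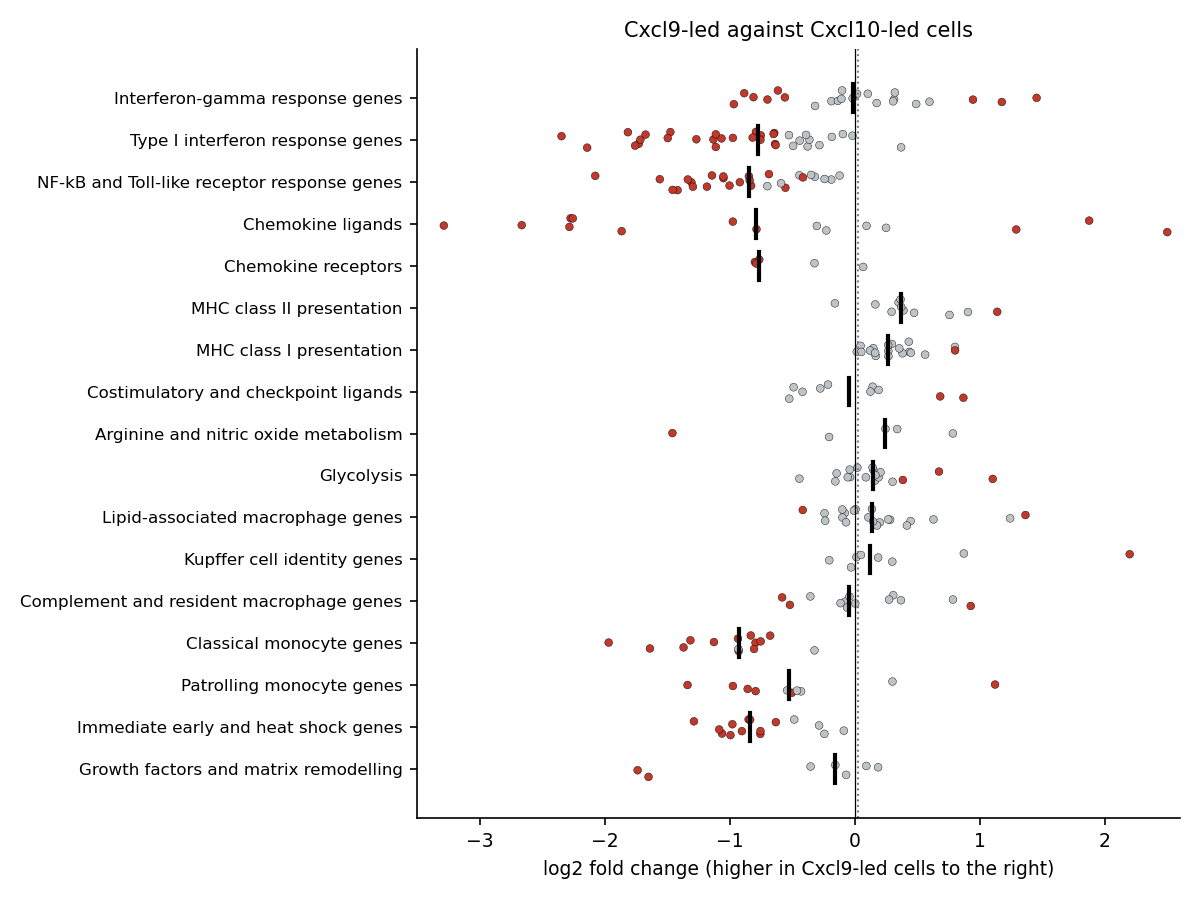
Log2 fold change of Cxcl9-led against Cxcl10-led cells (x axis) for the genes of each list (rows). Points are genes, red where the adjusted p is under 0.05, black bars are list medians and the dotted line is the median of all genes; 1 gene, Ccl22 (3.13), is drawn at the edge. The type I interferon, NF-κB, classical monocyte and immediate early rows lie to the left of 0 (medians -0.77, -0.85, -0.93 and -0.84), and the class II row mostly to the right (median 0.37, with 1 of 11 genes called).

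A second comparison set the Cxcl9/Cxcl10-high cells against the lipid-associated profile, taken as 10907 other Csf1r+ cells with 3 or more UMIs of Trem2 and Gpnmb (891 to 2586 per mouse). The 525 Cxcl9/Cxcl10-high cells that also met that limit stayed on their own side. The edgeR test with a mouse block called 1166 of 11511 genes higher (10.1%) and 824 lower (7.16%) in the Cxcl9/Cxcl10-high cells. Over the 5 mice left when cells with markers of other lineages were dropped, 573 were higher and 349 lower, of which 478 and 280 were among those called with all cells. The rule for the second group used Trem2 and Gpnmb, which are left out of the counts below.

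Dnase1l3 (3.82 ± 0.13, SE, adjusted p = 1.42e-08), Serpina3g (3.66), Gbp5 (3.16), Gbp2 (2.90), Ifi205 (2.54), Iigp1 (2.55) and the peptidase gene Dpp4 (2.57) were higher, also without endothelial-marked cells. The endothelial gene Col4a2 (2.64) lost its call without those cells (0.32, adjusted p = 0.460), while Flt1 kept it (2.60, and 1.57 without them). Kdr was higher by 2.90, and by 0.20 without those cells, a fall set by the filter because Kdr is one of the genes that mark them. Interferon-γ response genes were higher in 24 of 25 cases, type I interferon genes in 29 of 34 and NF-κB and Toll-like receptor genes in 28 of 31, with none lower in these 3 lists (medians 1.27, 0.79 and 0.95, against 0.01 over all genes). The log2 fold change of Acod1 was 2.32 ± 0.33 (SE), with medians over 6 mice of 71.3 and 11.4 CPM, that of Gpr84 1.32 and that of Il1rn 0.62.

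The comparison cells were chosen for the lipid-associated profile, so the values of its genes are a description. Fold changes were past the threshold and negative for 17 of 20 lipid-associated genes, and positive for none (median -0.81). Spp1 was at 335 to 910 CPM (median 446) against 634 to 2257 CPM (median 1302), a log2 fold change of -1.45 ± 0.11 (SE). The fatty acid binding protein gene Fabp5 (-1.43), the macrophage elastase gene Mmp12 (-1.55), the synaptogyrin gene Syngr1 (-1.82), Emp1 (-1.45), the platelet factor 4 gene Pf4 (-1.45), Arhgap19 (-1.46), the coagulation factor gene F7 (-1.39), the growth factor gene Igf1 (-1.37) and the integrin gene Itga6 (-1.30) were lower as well. Complement and resident macrophage genes were lower in 10 of 14 cases and patrolling monocyte genes higher in 6 of 10, the opposite of the directions against all other Csf1r+ cells. Both comparisons share the Cxcl9/Cxcl10-high cells, and the 10907 cells are part of the other Csf1r+ cells. Those 10907 cells were chosen by their Trem2 and Gpnmb UMIs, and whether that choice set the directions of these 2 lists was not tested.

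Between the NASH models the Cxcl9/Cxcl10-high cells made up 3.40 ± 2.63% of Csf1r+ cells in WD+F+CCl4 mice and 4.11 ± 1.47% in HFD+F+CCl4 mice (SD, n = 3 each). The difference of -0.70 percentage points was smaller than the spread between mice (exact two-sided permutation test, p = 0.8, where 3 against 3 mice cannot go below 0.1). Without WD+F+CCl4 replicate 3 the groups did not overlap (difference -2.22 points, exact permutation p = 0.2), and without cells marked by other lineages the difference was 0.20 points. Between the models no gene passed the edgeR test in the Cxcl9/Cxcl10-high cells (0 of 9655 tested, 0.0%), with 258 at an unadjusted p under 0.05 and 2 called by DESeq2.

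No gene showed a model effect that differed between the Cxcl9/Cxcl10-high and the other Csf1r+ cells in the edgeR interaction test (0 of 15835, 0.0%). There were 576 genes at an unadjusted p under 0.05, and DESeq2 called none. The count of 0 did not hold in every setting: with all 6 mice it was 60 with genes kept at 1 count, 15 without endothelial-marked cells and 2 with a limit of 5 chemokine UMIs. With 1 mouse left out it was 46 without HFD+F+CCl4 replicate 1, 35 without WD+F+CCl4 replicate 3, 12 without HFD+F+CCl4 replicate 3 and 1 without HFD+F+CCl4 replicate 2.

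A family of 7 further measures was compared between the models, and none passed after adjustment. Cxcr3, the receptor gene, in T cells was 116 ± 11.7 against 88.7 ± 7.10 CPM (SD, n = 3 each), without overlap (exact permutation p = 0.1, the smallest possible, adjusted p = 0.7). As a description of genes that chose the cells, Cxcl10 in the Cxcl9/Cxcl10-high cells averaged 826 CPM (SD 124) over the WD+F+CCl4 mice against 649 CPM (SD 57.4) over the HFD+F+CCl4 mice, 3 of each, and Cxcl9 was 1459 ± 606 against 1353 ± 362 CPM.

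Ifng, the gene of interferon-γ, was measured in T cells at 21.9, 21.5 and 94.6 CPM in WD+F+CCl4 and at 100.5, 52.4 and 78.3 CPM in HFD+F+CCl4 replicates 1 to 3. The 2 mice with the lowest Ifng in T cells, WD+F+CCl4 replicates 1 and 2, had the lowest shares of Cxcl9/Cxcl10-high cells (1.76 and 2.02%), a relation that was not tested. In NK cells Ifng was at 19.7, 29.0, 44.3, 184, 50.3 and 12 CPM in the same order of mice. The Cxcl9/Cxcl10-high cells themselves held no Ifng UMI in 5 of the 6 mice.

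Control livers gave few Csf1r+ cells within the limits of the rule, but a larger share of those passed the chemokine limit. Cells with more than 1 UMI of the Kupffer cell gene Clec4f are outside these limits. The shares are therefore not of all Csf1r+ cells, and how many cells this left out in each group is not given here. There were 74 among 605 (12.2%, 95% Wilson interval 9.86 to 15.1%) in Control replicate 1 and 16 among 242 (6.61%, 4.11 to 10.5%) in Control replicate 2. The share averaged 3.75% (SD 1.94) over the 6 NASH mice against 9.42% (SD 3.97) over the 2 Control mice, a difference of -5.67 points with no overlap (exact two-sided permutation test, p = 0.0714, the smallest that 6 against 2 mice allow). Of all kept barcodes, in contrast, the same cells were 0.950 to 3.30% in NASH and 0.686 and 0.384% in Control mice, so the direction turned with the denominator (2.17 against 0.535%, exact permutation p = 0.0714). With all cells thinned to 3000 UMIs, the Control shares were 12.6% and 0 of 9 cells (exact permutation p = 0.5). With a limit of 2 chemokine UMIs the groups overlapped (10.7% in Control against 5.28% in NASH mice, exact permutation p = 0.143).

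The rule asks for 3 chemokine UMIs at any depth. The Control cells that passed it had a median of 4951 and 1185 UMIs in Control replicates 1 and 2, against 5787 to 7119 in the NASH mice, and held 1638 Cxcl9 UMIs in 74 cells and 151 in 16. Cxcl9 was at 4116 and 6914 CPM in Control replicates 1 and 2, against 772 to 1914 CPM in the NASH mice, and Cxcl10 at 2329.6 and 3022 CPM against 598 to 967 CPM. Ccl12 was listed at 0 in both Control mice, and at 27.7 to 141 CPM in the Cxcl9/Cxcl10-high cells of the NASH mice. Of all Cxcl9 UMIs in kept barcodes, 38.9 and 69.6% lay in Control barcodes without Csf1r and with fewer than 10 endothelial UMIs, against 8.13 to 29.0% in the NASH mice. For Cxcl10 the shares were 48.3 and 78.6% against 8.53 to 16.1%. How much of the chemokine RNA in the Control cells was free RNA was not tested. The Control values rest on 397916 and 21839 UMIs in 74 and 16 cells and were not tested.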

How the data were processed

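Per the labels and the study's methods, the authors made 10x 3′ libraries, demultiplexed them with bcl2fastq 2.20 and ran Cell Ranger on GRCm38, and the deposited files hold UMI counts per gene (55450) and barcode for the 8 libraries. No alignment was repeated here. Cells were selected by the rule in the text, UMI counts were summed per mouse and cell group (at least 20 cells), and 6 NASH mice entered the gene tests: edgeR 4.0.16 (TMM, filterByExpr with a minimum count of 10, quasi-likelihood F test, mouse as a block within mice, Benjamini-Hochberg adjustment over all genes tested, threshold 0.05) in R 4.3.3. CPM are UMIs of a gene per 1000000 UMIs of the summed cells. Shares were compared over mice by exact permutation in Python with SciPy 1.17.1. The test was run on simulated counts before use. Those counts held no differences between mice beyond random noise, so that trial does not show how the test performs on these data. No doublet caller was run, and cells with markers of other lineages were left out as an alternative instead. Alternatives were DESeq2 1.42.0, other scalings, filters and limits, thinning to 3000 UMIs, depth-matched comparison cells and leaving out each mouse.

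The members, gene lists and rules were chosen with earlier results of these data known. The leaving out of endothelial-marked cells, and for Cxcl9-led against Cxcl10-led cells of cells with dendritic cell markers, was added after the data were seen. Genes were named by rule: the rule and label genes, up to 10 genes per direction with the largest called fold change, the same sign in every mouse and at least 50 CPM, for each list the 2 to 4 most abundant called genes and the most abundant one not called, and a few effector genes; a few genes these rules name are not reported here. Nothing says that mice were littermates or shared a day, and each is 1 library, so technical spread is included in the spread between mice. The promoter sequences are from RefSeq (GRCm38.p6).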

Additional observations from a re-analysis of the deposited data

Results flagged for a closer look

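Within the comparison of Cxcl9-led with Cxcl10-led cells, the log2 ratio of Cnn3 in WD+F+CCl4 replicate 2 was 4.491, far from those of the other 5 NASH mice. Within the comparison with the Trem2/Gpnmb cells, the log2 ratio of Iigp1 was 4.479 in the same mouse, again apart from the other 5. Of 71 such sets of 6 values about 1 in 20 would be singled out by chance, and 2 were.

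Il1rn moved in opposite directions in the NASH models. In every WD+F+CCl4 mouse it was higher in Cxcl9-led than in Cxcl10-led cells, and in every HFD+F+CCl4 mouse it was lower, a difference of 1.383 between the mean log2 ratios. This difference was not tested.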

How the results depend on the processing

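The number of genes called against other Csf1r+ cells was 1826. It was 794 with depth-matched comparison cells and 93 without a term for the mouse, and 1095 to 1894 when 1 mouse was left out (lowest without WD+F+CCl4 replicate 3). For Cxcl9-led against Cxcl10-led cells it was 689, and 412 with DESeq2, 1433 with genes kept at 1 count, 445 with a limit of 5 chemokine UMIs, 63 without cells marked by other lineages (3 mice), 49 without the mouse term and 388 to 809 with 1 mouse left out. Against the Trem2/Gpnmb cells it was 1990, and 922 without cells marked by other lineages (5 mice), 310 without the mouse term and 1418 to 1912 with 1 mouse left out. Between the models the count was 0, with 2 by DESeq2 and 4 without cells marked by other lineages (5 mice). For the interaction it was 0, and 60 with genes kept at 1 count, 10 without cells marked by other lineages (5 mice), 2 with a limit of 5 UMIs, 15 without endothelial-marked cells and 0 to 46 with 1 mouse left out. Where no cause is given by the construction of an alternative (fewer mice, cells or genes), the cause was not tested.

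The difference in share between the models (-0.70 points) was 0.20 points without cells marked by other lineages and ran from -2.22 to 0.12 with 1 mouse left out (positive without WD+F+CCl4 replicate 1). The difference from Control (-5.67 points) was 1.63 points as a share of all kept barcodes and ran from -8.48 to -2.86 with 1 mouse left out.

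Against other Csf1r+ cells, log2 fold changes of 11 named genes changed sign, all small in at least 1 of the settings. Without cells marked by other lineages Apoe was 0.15, Ccl9 0.0937, Fas -0.00379, Hmox1 0.22, Jun 0.0300, Lyz2 0.22 and Spp1 0.18. Without endothelial-marked cells Apoe was 0.0435, Ccl9 0.0739, Lyz2 0.0625 and Selenop -0.00876. Ccl9 was 0.00950 with a limit of 5 UMIs, Retnlg 0.0369 with depth-matched cells, and Ctss -0.00143 with library totals, -0.0188 with genes kept at 1 count and -0.00469 with depth-matched cells. Fabp4 was 0.23 without the mouse term and ran from -0.692 (without WD+F+CCl4 replicate 3) to 0.0498 (without HFD+F+CCl4 replicate 3). Between Cxcl9-led and Cxcl10-led cells Il1rn ran from -0.362 to 0.0325 with 1 mouse left out, and was positive without HFD+F+CCl4 replicate 1 (0.0325) or 2 (0.0224), 0.82 without cells marked by other lineages, 0.21 without endothelial-marked cells and 0.113 without cells with dendritic cell markers. Keeping genes at 1 count moved the median fold change of all genes against other Csf1r+ cells to -0.23 and against the Trem2/Gpnmb cells to -0.13. The comparison with Control mice rests on 605 and 242 Csf1r+ cells.

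Replicate numbers are shared by the models, but nothing says that they pair the mice. Deviations of same-numbered mice correlated at -0.54, -0.07 and -0.74, and those of differently numbered mice at -0.46 to 0.72. The deviations were taken from a mean of 3 mice per model, so these correlations cannot decide whether mice were paired. In a fit that took the replicate number for a block, 0 genes were called between the models and the difference in share stayed at -0.70 points (exact permutation p = 0.75).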
